A study of Homo sapiens with 18 samples.

Results

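Wild-type p53 was returned to NCI-H1299 cells, a human non-small cell lung carcinoma line that lacks p53, and the transcripts that followed were measured on 3 arrays titled WTp53 against 3 arrays titled empty vector. These are 6 of the 18 arrays of the series, and they were compared over the 19460 of 33297 probe sets that the platform annotation pairs with exactly 1 gene symbol, which gave 18417 genes. Both groups received the plasmid pIRES-2EGFP, which makes green fluorescent protein. In the WTp53 group it also carried wild-type p53, and in the control group it carried no insert. Cells were transiently transfected with Lipofectamine 2000, and total RNA was taken after 40 hours from cells sorted for green fluorescence. Each group has 1 array from each of experiments 0, 4 and 5, which the submitters call independent transfections. The comparison asks which transcripts change when p53 is put back into a cell that has none. The model is 1 established line with a plasmid-driven, transient supply of p53, and untransfected cells were removed only as far as the fluorescence sort did so.

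p53 is a transcription factor that binds DNA as a tetramer and directly activates genes for cell cycle arrest, cell death, DNA repair and its own negative feedback. Most genes that fall when p53 is active are thought to fall indirectly: the p53 target CDKN1A encodes the kinase inhibitor p21, which keeps RB-family proteins bound to E2F factors, so that the DREAM complex and RB-E2F repress genes of replication and mitosis. E2F factors read sites such as TTCCCGC, the DREAM complex reads elements such as TTTGAA, and the factor NF-Y reads CCAAT boxes, which are frequent in promoters of mitotic and histone genes.

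The promoters of 6 genes are shown to set these letters beside the measurements: 3 of genes that rose and whose promoter holds a p53 half-site, and 3 of genes that fell with the repressive or CCAAT elements. They were chosen after the values were seen. Each run is the 250 bases before the gene start in RefSeq (GRCh38.p14), read 5′ to 3′ on the gene's own strand. Capitals mark matches, on either strand, to the p53 half-site, to the 3 elements named above or to the TATA box, searched as TATAAA. The regions are chr12:20571829-20572078 (plus strand) for PDE3A, chr6:33580277-33580526 (minus strand) for BAK1, chr15:63157478-63157727 (minus strand) for RPS27L, chr10:60778081-60778330 (plus strand) for CDK1, chr17:40417897-40418146 (minus strand) for TOP2A and chr6:26199266-26199515 (plus strand) for H2BC7.
PDE3A: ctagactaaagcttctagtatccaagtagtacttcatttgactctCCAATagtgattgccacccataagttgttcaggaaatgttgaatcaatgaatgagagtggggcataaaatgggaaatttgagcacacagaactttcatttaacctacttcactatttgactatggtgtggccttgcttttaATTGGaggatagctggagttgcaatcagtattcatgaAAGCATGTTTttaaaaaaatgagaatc
BAK1: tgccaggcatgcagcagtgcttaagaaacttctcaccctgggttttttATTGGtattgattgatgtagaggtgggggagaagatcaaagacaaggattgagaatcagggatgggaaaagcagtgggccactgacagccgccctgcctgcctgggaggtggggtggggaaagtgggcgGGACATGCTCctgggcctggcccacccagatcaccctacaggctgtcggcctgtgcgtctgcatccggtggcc
RPS27L: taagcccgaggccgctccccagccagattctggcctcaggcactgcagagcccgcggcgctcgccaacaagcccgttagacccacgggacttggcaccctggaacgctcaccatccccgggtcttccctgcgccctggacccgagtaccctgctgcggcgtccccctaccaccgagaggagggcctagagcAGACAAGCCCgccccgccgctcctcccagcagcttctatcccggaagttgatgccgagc
CDK1: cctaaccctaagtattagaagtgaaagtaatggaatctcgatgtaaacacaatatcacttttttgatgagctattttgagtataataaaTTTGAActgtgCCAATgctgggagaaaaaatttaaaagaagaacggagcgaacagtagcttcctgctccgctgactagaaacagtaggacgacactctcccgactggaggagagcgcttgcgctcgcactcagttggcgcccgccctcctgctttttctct
TOP2A: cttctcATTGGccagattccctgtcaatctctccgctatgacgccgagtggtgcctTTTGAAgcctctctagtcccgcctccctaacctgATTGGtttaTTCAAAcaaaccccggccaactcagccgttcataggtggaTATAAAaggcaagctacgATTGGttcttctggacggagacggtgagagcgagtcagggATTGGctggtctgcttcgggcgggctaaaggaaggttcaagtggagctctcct
H2BC7: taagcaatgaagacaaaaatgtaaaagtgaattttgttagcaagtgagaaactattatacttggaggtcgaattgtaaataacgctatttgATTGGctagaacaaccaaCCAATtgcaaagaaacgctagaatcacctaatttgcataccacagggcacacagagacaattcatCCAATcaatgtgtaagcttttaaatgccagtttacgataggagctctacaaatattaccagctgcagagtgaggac

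In these windows PDE3A, BAK1 and RPS27L each hold 1 half-site, which begins 27, 73 and 59 bases before the start. CDK1 holds TTTGAA and CCAAT a few bases apart. TOP2A holds 2 TTTGAA and 4 CCAAT matches and a TATAAA, and H2BC7 holds 3 CCAAT matches. A match is a string of letters, not evidence of binding. RefSeq promoters of 300 bases, from 250 before to 50 after the first listed start, were matched by symbol for 14239 of the 18417 genes. No motif searched contains another. The p53 half-site was in 5.94% of all 14239 promoters, in 8.57% of the 595 of genes called at least 2-fold higher and in 4.34% of the 461 of genes called at least 2-fold lower. For CCAAT the shares were 36.3%, 32.3% and 50.8% in the same order, for TTCCCGC 8.95%, 8.40% and 12.1%, for TTTGAA 11.9%, 8.40% and 14.3%, and for TATAAA 9.0%, 7.56% and 7.59%. Base composition also differed between these sets. The median GC content was 63.0% over all promoters, 70.3% for the higher genes and 60.7% for the lower ones. Its part in the shares was not tested. For the half-site the share was 6.48% of the 108 promoters at least 4-fold higher and 11.5% of the 26 at least 8-fold higher. Pairs of half-sites at most 13 bases apart were in 3 of all promoters, in 1 of the 595 and in 0 of the 108. Among gene lists, TTTGAA was in 73.5% of 34 promoters of mitotic kinases and motors and in 48.1% of 27 kinetochore and checkpoint promoters. TTCCCGC was in 38.1% of 42 replication promoters and in 36.4% of 33 promoters of homologous recombination and Fanconi genes. CCAAT was in 83.6% and TATAAA in 63.6% of 55 histone promoters, whose median GC content was 43.3%. In 441 zinc finger promoters the share of TTTGAA was 9.52% and that of CCAAT 46.7%. With zinc finger genes left out, CCAAT was in 48.2% of the 338 promoters of genes at least 2-fold lower. In 275 olfactory receptor promoters, with a median GC content of 38.0%, TTTGAA was in 35.6%, TATAAA in 31.3% and CCAAT in 43.3%.

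The values are log2 intensities, so a difference of 1 is 2-fold. They compare arrays within a gene; probes differ in how well they bind, so levels of different genes are not compared. Values by array are given in the order of experiments 0, 4 and 5. A change is the mean of the WTp53 arrays minus the mean of the vector arrays, with its standard error from limma (n = 3 arrays a group). A gene is called, and said to have risen or fallen, when its limma p-value adjusted by Benjamini-Hochberg over all 18417 genes is under 0.05. Array medians lay between 4.89 and 4.97, and the correlation over genes was 0.9919 to 0.9973 within a group and 0.9590 to 0.9776 between groups, computed across genes, which are not independent of each other. Among vector arrays a gene's standard deviation had a median of 0.104, and among WTp53 arrays one of 0.109. As each sample is sorted cells in bulk, fewer cells with a transcript and less of it per cell cannot be told apart. Markers of other cell types were compared between the groups, beside 17.3% of all genes called higher and 19.5% called lower. Called higher were 2 of 15 fibroblast and endothelium markers (13.3%), 2 of 13 leukocyte markers (15.4%) and 0 of 9 neuroendocrine markers, and 0, 1 and 0 were lower. The largest of these changes was that of ACTA2, smooth muscle actin, which went from 5.6 to 9.07. Of 15 markers of lung epithelium 3 were called higher (20%, near the share over all genes) and 0 lower, with the surfactant gene SFTPC at 1.33 ± 0.14. The part of other cells in the results was not tested. As a description, 3, 5, 3 and 6 members of these lists, in the order given, had a mean above 4.93, the median of all probe sets.

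One experiment stood apart before any comparison. In experiment 0, 37 genes were at least 1 log2 unit higher on both arrays than on all 4 arrays of experiments 4 and 5, and 22 of these are in a list of 35 measured interferon-stimulated genes, the antiviral genes switched on by type I interferon. The median level of that list was 8.75, 6.41 and 6.33 on the vector arrays and 8.25, 6.42 and 6.40 on the WTp53 arrays. No gene stood apart in this way in experiment 4 or 5. The changes were also smaller in experiment 0. Over the 1304 genes called with at least a 2-fold change, the median size was 1.05 there against 1.44 and 1.51 in experiments 4 and 5. All 1304 moved the same way in the 3 experiments. They were called on these same arrays, which favours equal signs, so the equal signs are no separate check. In experiment 0, 745 of the 1304 reached a difference of 1, against 1255 and 1267 in experiments 4 and 5.

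**Figure D1:**
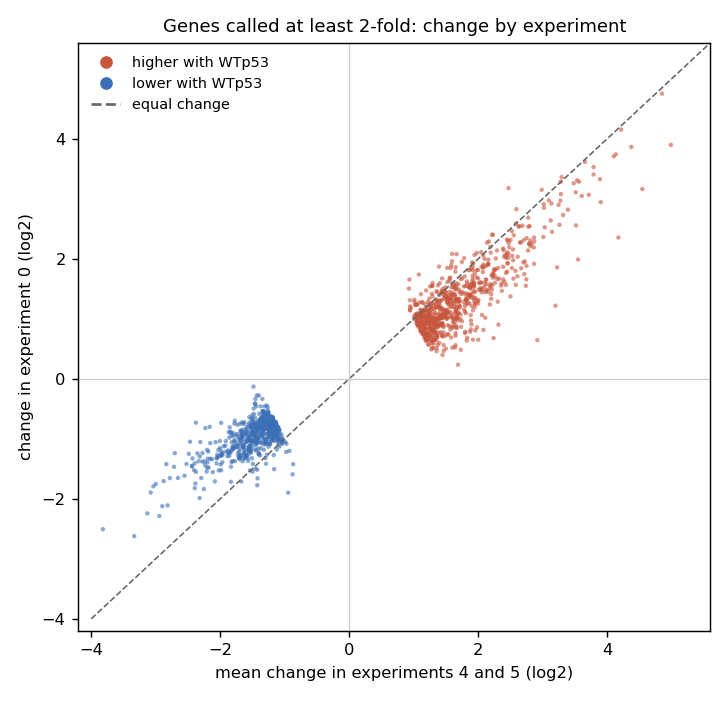
Each point is 1 of the 1304 genes called at least 2-fold; the horizontal axis is the mean log2 change in experiments 4 and 5, the vertical axis the log2 change in experiment 0, and the dashed line marks equal changes. All points keep their sign in experiment 0, which calling the genes on the same arrays favours. Most points lie nearer to 0 there, with a median size of 1.05 against 1.44 and 1.51.

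Reintroduced p53 changed a large part of the transcriptome. Of 18417 genes, 6772 were called (36.8%): 3180 were higher (17.3%) and 3592 lower (19.5%). The largest effects were rises. At least 2-fold, 743 genes were higher (4.03%) and 561 lower (3.05%). At least 4-fold, the counts were 140 and 30, and at least 8-fold, 32 and 2. Of the called genes, 3400 changed less than 1.5-fold. The 2 groups did not overlap for 8992 genes (48.8%), among them all 1304 that were called at 2-fold or more. For these 1304 the calling on the same arrays favours such a gap. Without experiment 4 the calls were 1681 higher and 1739 lower, and without experiment 5 they were 1825 and 1895. Single genes cannot fall below a two-sided exact permutation p of 0.1 with 3 arrays a group, so the calls rest on limma's shared estimate of spread.

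The best known targets were read first, as a check of the labels. CDKN1A (p21) read 5.86, 4.9 and 5.05 on the vector arrays and 9.76, 10.00 and 9.92 on the WTp53 arrays. The vector array of experiment 0 was the highest of the controls, yet lay far below every WTp53 array. The rise was 24.6-fold, 4.62 ± 0.23 (limma adjusted p = 1.80e-05). MDM2, whose ubiquitin ligase activity marks p53 for destruction, read 8.38, 8.13 and 8.13 without p53 and 11.64, 11.62 and 11.61 with it. Its WTp53 arrays were nearly equal, and the rise was 10.6-fold, 3.41 ± 0.09 (limma adjusted p = 2.84e-06).

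**Figure D2:**
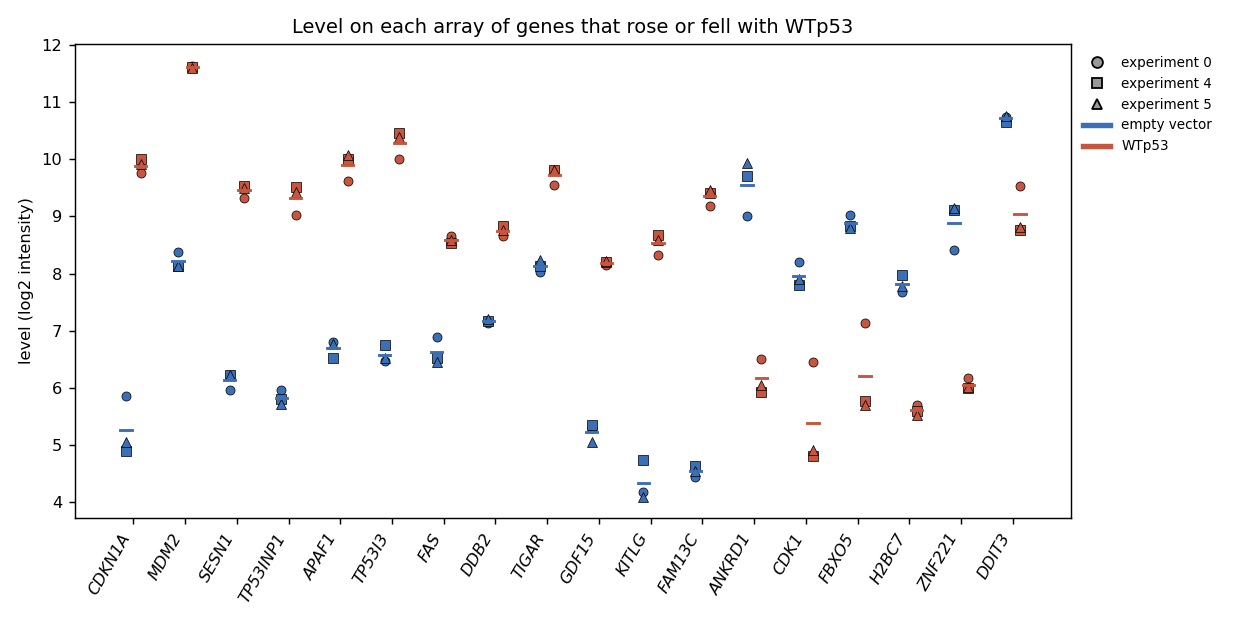
Log2 intensity of 18 genes on each of the 6 arrays; blue is empty vector, red WTp53, the marker shape gives the experiment and the short lines are group means (n = 3). No gene shown has overlapping groups, and levels are to be compared within a gene only; CDKN1A, for example, lies at 4.9 to 5.86 with vector and at 9.76 to 10.00 with WTp53.

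Genes that stop the cell cycle rose almost as a group. Of 14 measured arrest targets 13 rose and 0 fell, with a median change of 1.05 against 0.02 over all genes. The stress kinases PLK3 and PLK2 rose by 2.28 ± 0.12 and 1.54 ± 0.09, and RPRM, a mediator of arrest in G2, by 2.14 ± 0.15. ZMAT3, an RNA-binding protein of the p53 programme, read 6.26, 6.97 and 6.93 with vector and 8.33, 8.59 and 8.63 with WTp53. E2F7, an E2F factor that represses rather than activates, rose by 0.93 ± 0.07. Of 12 feedback regulators 7 rose and 2 fell. Besides MDM2, the phosphatase PPM1D, which switches off the damage response, rose by 1.03 ± 0.08, and CCNG1, a cyclin that works with a phosphatase on MDM2, by 0.61 ± 0.08. MDM4, the partner of MDM2 that blocks the activation domain of p53, went the other way: it read 6.97, 7.36 and 7.37 with vector and 6.55, 6.34 and 6.19 with WTp53, a fall of −0.87 ± 0.14 (limma adjusted p = 0.00158). RCHY1, another ubiquitin ligase for p53, also fell (−0.42 ± 0.11), but did not pass without the vector array of experiment 4 or 5 or the WTp53 array of experiment 0 or 5 (limma adjusted p = 0.0732, 0.0739, 0.0549 and 0.0647).

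Of 8 measured sestrin and growth inhibitor genes 7 rose and 1 fell; without experiment 4, and likewise without experiment 5, the counts were 4 and 0. SESN1, whose protein restrains the growth kinase mTORC1, read 5.97, 6.23 and 6.22 with vector and 9.33, 9.53 and 9.51 with WTp53, a rise of 3.32 ± 0.10 (limma adjusted p = 4.50e-06). Its paralogs differed. SESN2 rose by 0.75 ± 0.18, and SESN3 fell by 0.36; the latter call was lost without any 1 array other than the vector array of experiment 0 (limma adjusted p from 0.0642 without the WTp53 array of experiment 5 to 0.0895 without that of experiment 4). TP53INP1, a stress protein that promotes p53 activity and autophagy, rose by 3.50 ± 0.14, PRKAB1, a subunit of the energy sensor AMPK, by 0.72 ± 0.08, and DDIT4, an inhibitor of mTORC1, by 1.11 ± 0.21. The wider mTOR list was split, with 10 of 37 members higher and 13 lower: NPRL2 and WDR59, of the complexes that sense amino acids, rose by 1.10 ± 0.09 and 0.94 ± 0.10, whereas RICTOR, the scaffold of mTORC2, and FNIP1, a folliculin partner, fell by 1.36 and 1.27. In insulin and IGF signalling 11 of 25 members were higher and 2 lower. IGF1R, the receptor for insulin-like growth factors, rose by 1.68 ± 0.13 and PIK3R1, the regulatory subunit of PI3-kinase, by 1.88 ± 0.15. The kinases AKT1 and AKT2 moved in opposite directions, by 0.59 ± 0.08 and −0.38 ± 0.07. Without experiment 4, and equally without experiment 5, 5 mTOR and 6 insulin and IGF genes were called higher.

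Targets in both arms of cell death rose. Of 18 measured targets of the intrinsic, mitochondrial pathway 16 rose and 0 fell, with a median change of 1.40; the median was 0.97 in experiment 0 and 1.58 and 1.57 in experiments 4 and 5. TP53I3, a quinone reductase linked to oxidative stress, read 6.47, 6.76 and 6.52 with vector and 10.00, 10.46 and 10.40 with WTp53. APAF1, the scaffold of the apoptosome, read 6.81, 6.52 and 6.77 and then 9.63, 10.00 and 10.07. In both genes the WTp53 array of experiment 0 was the lowest of its group, far above the controls. The rises were 3.70 ± 0.14 (limma adjusted p = 6.39e-06) and 3.20 ± 0.13 (limma adjusted p = 1.01e-05). The effector caspase CASP6 rose by 2.31 ± 0.10, the nuclease AEN by 1.55 ± 0.08, AIFM2, an oxidoreductase of the membrane, by 1.99 ± 0.13, and BAK1, which forms pores in the mitochondrial membrane and whose promoter is shown above, by 1.76 ± 0.11. Of 8 death receptor genes 6 rose and 1 fell. FAS read 6.88, 6.52 and 6.45 with vector and 8.66, 8.53 and 8.59 with WTp53 (1.97 ± 0.12). The TRAIL receptors TNFRSF10A and TNFRSF10B rose by 1.48 ± 0.12 and 0.69 ± 0.08, and the decoy receptor TNFRSF10D, which lacks a full death domain, by 1.85 ± 0.23. CASP8, the initiator caspase that these receptors recruit, fell (−0.67 ± 0.13, limma adjusted p = 0.00409): its vector arrays read 6.88, 6.47 and 6.58 and its WTp53 arrays 6.15, 5.87 and 5.90.

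Most repair targets of p53 rose. Of 11 measured DNA repair targets 7 rose and 1 fell. DDB2, which finds ultraviolet damage, read 7.13, 7.18 and 7.20 with vector and 8.66, 8.84 and 8.76 with WTp53 (1.58 ± 0.08), the translesion polymerase POLH rose by 1.90 ± 0.10, and RRM2B, the p53-controlled subunit of ribonucleotide reductase, by 1.47 ± 0.08. XPC, the partner of DDB2 in damage recognition, and the sliding clamp PCNA rose by 0.73 ± 0.09 and 0.75 ± 0.11. REV3L, the catalytic subunit of another translesion polymerase, fell by 0.37. Of 15 metabolism and redox targets 9 rose and 0 fell. They included TIGAR, which diverts sugar from glycolysis (8.02, 8.13 and 8.23 with vector, 9.55, 9.82 and 9.82 with WTp53), PANK1, an enzyme of coenzyme A synthesis (1.97 ± 0.14), and PRODH, which oxidizes proline (1.80 ± 0.16). Among 13 autophagy and lysosome targets 2 rose and 5 fell: DRAM1, a lysosomal protein, rose by 2.31 ± 0.10 and the kinase ULK1 by 0.75 ± 0.11, whereas the protease ATG4C fell by 0.91, UVRAG by 0.47 and ATG10 by 0.42. Without experiment 4 or 5 the autophagy counts were 2 higher and 2 lower.

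Secreted factors and matrix genes held some of the strongest rises. Of 14 measured secreted and matrix targets 10 rose and 0 fell. GDF15, a stress cytokine, read 5.30, 5.35 and 5.04 with vector and 8.15, 8.21 and 8.22 with WTp53. KITLG, the ligand of the receptor KIT, read 4.18, 4.74 and 4.10 and then 8.33, 8.68 and 8.59, an 18.3-fold rise of 4.19 ± 0.18. The matrix proteoglycan VCAN rose by 3.97 ± 0.23, the serpin SERPINB5 by 2.33 ± 0.14, and the ligands of the EGF receptor TGFA and HBEGF by 1.92 ± 0.14 and 1.5 ± 0.12. Of 42 other direct targets 30 rose and 1, the decapping factor DCP1B (−0.92 ± 0.13), fell. The list held the largest rise of all genes, FAM13C, a gene of little known function: 4.43, 4.63 and 4.55 with vector against 9.18, 9.41 and 9.46 with WTp53, 28.2-fold (4.82 ± 0.10, limma adjusted p = 7.37e-07). CYFIP2, a part of the complex that controls actin branching, read 5.32, 5.32 and 5.30 and then 9.18, 9.63 and 9.73 (4.20 ± 0.14). RPS27L, a p53-responsive paralog of a ribosomal protein, rose by 1.87 ± 0.10 and SUSD6 by 3.21 ± 0.14.

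Further genes among the 15 largest rises were not in the target lists. PDE3A, a phosphodiesterase that breaks down cyclic nucleotides, read 4.43, 3.86 and 3.57 with vector and 7.59, 8.31 and 8.20 with WTp53, a rise of 4.08 ± 0.25. RRAD, a small GTPase that restrains calcium channels, rose by 4.00 ± 0.28; both its vector and its WTp53 array were highest in experiment 0 (6.09 and 9.83). SLC4A11, a transporter of the bicarbonate family, rose by 3.70 ± 0.22, and ACTA2 by 3.47 ± 0.12. PALMD, a paralemmin-like membrane protein, rose by 3.64 ± 0.14. CCNA1, the cyclin A normally found in the germ line, read 6.01, 5.97 and 6.12 without p53 and 9.41, 9.79 and 9.88 with it. Among genes called at 2-fold or more, the change of IFI30, an interferon-inducible lysosomal reductase, had the widest range over the experiments: 0.64 in experiment 0, then 2.88 and 2.95. ZNF443, a zinc finger gene, followed (−1.05, then −3.23 and −1.71), a call lost without the vector array of experiment 5 or the WTp53 array of experiment 4 (limma adjusted p = 0.0579 and 0.0580). Next were LAMP3, a lysosomal membrane protein (1.22, then 3.33 and 3.07), the small nucleolar RNA SNORD49A (−0.80, then −1.56 and −2.76) and CRISPLD2, a secreted protein (2.35, then 4.09 and 4.25). The vector arrays of experiment 0 for IFI30 and LAMP3 (8.23 and 7.51) were well above the other vector arrays.

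**Figure D3:**
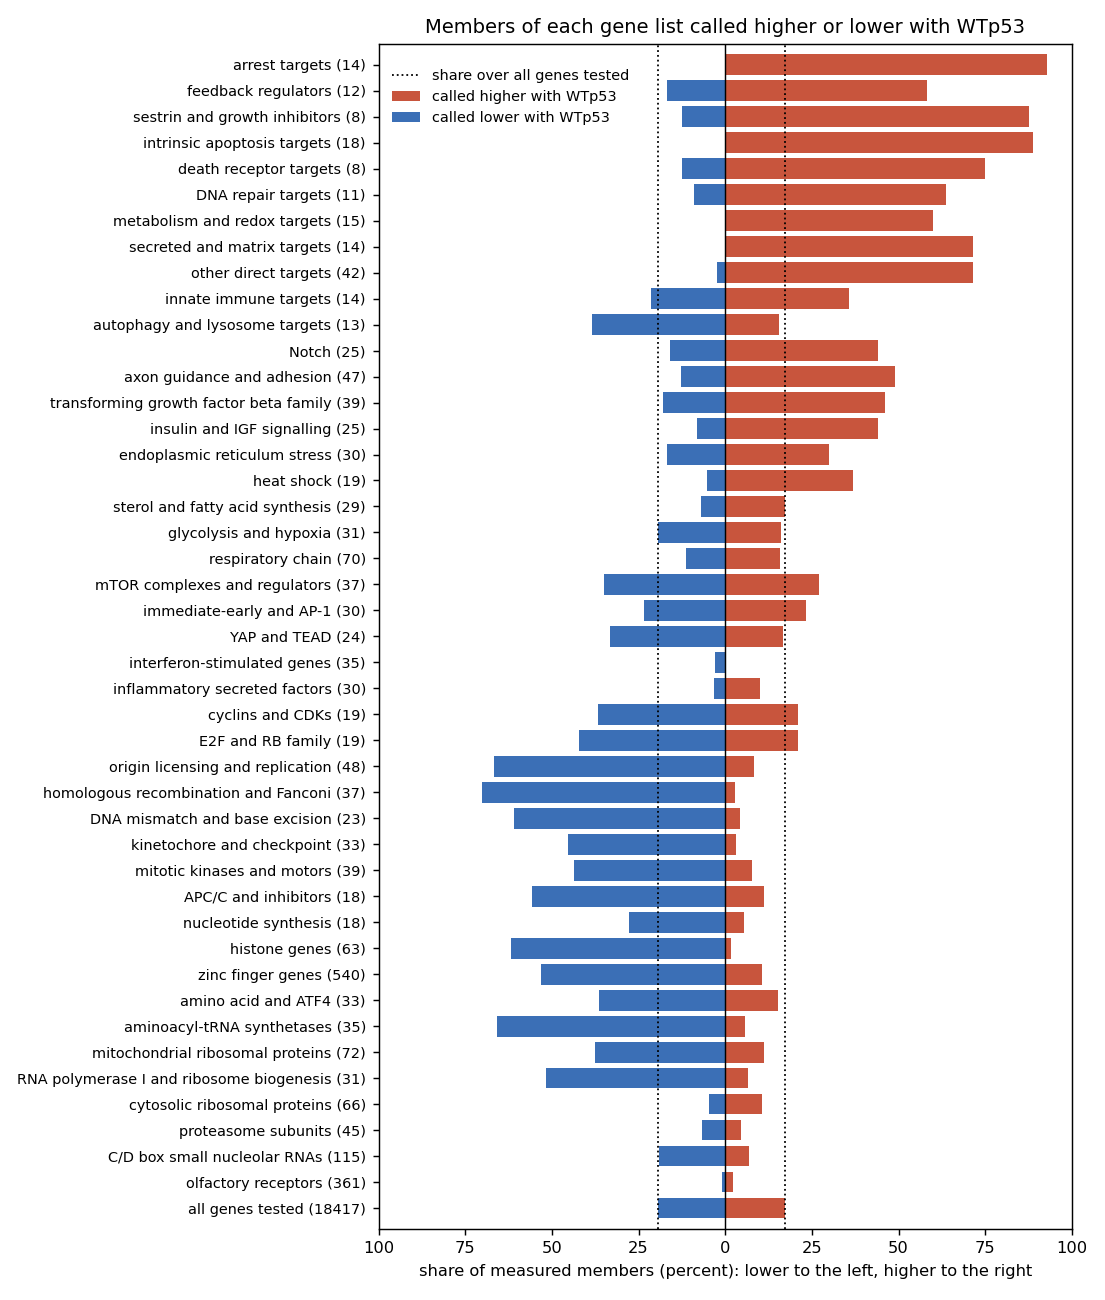
For each gene list, with its number of measured members in brackets, the bars give the percent of members called higher (right, red) and lower (left, blue) with WTp53; dotted lines mark the shares over all 18417 genes, 17.3% higher and 19.5% lower. Most p53 target lists lie to the right, replication, repair, histone, zinc finger and tRNA synthetase lists to the left, and olfactory receptors near 0.

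Genes that copy DNA fell together and by small amounts. Of 48 measured genes of origin licensing and replication 32 fell and 4 rose, and the median change was −0.47. The median was similar in the 3 experiments (−0.41, −0.47 and −0.53). MCM6, of the replicative helicase, read 9.82, 9.76 and 9.87 with vector and 9.18, 9.02 and 9.10 with WTp53 (−0.72 ± 0.08, limma adjusted p = 0.000314). PRIM1, the primase, fell by 0.81, RFC5, of the clamp loader, by 0.61, and CDC7, the kinase that fires origins, by 1.06. The members against the trend were ORC4, of the origin recognition complex (1.07 ± 0.08), and GINS4, of the helicase (0.70 ± 0.08). The number lower was 13 when the spread was taken from the 9 arrays of the first set and 19 without experiment 4.

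Cyclins and E2F factors moved in both directions. Of 19 cyclins and CDKs 4 rose and 7 fell, and of 19 E2F and RB family genes 4 rose and 8 fell. The share that rose, 21.1% in each list, was near the 17.3% over all genes. The shares that fell were 36.8% and 42.1%, against 19.5%. The 2 E-type cyclins, which start S phase, went in opposite directions: CCNE1 read 7.71, 7.41 and 7.40 with vector and 8.45, 8.54 and 8.57 with WTp53, whereas CCNE2 read 7.16, 7.13 and 7.01 and then 5.88, 5.57 and 5.4. Neither gene had overlapping groups, and the changes were 1.01 ± 0.10 and −1.49 ± 0.13. WEE1, the kinase that holds CDK1 inactive, rose by 1.55 ± 0.11, and CDC25A, a phosphatase that activates CDKs, fell by 0.55. RBL1, which encodes the pocket protein p107, read 7.46, 7.36 and 7.40 without p53 and 6.34, 5.74 and 5.45 with it. The lower counts of the 2 lists were 4 and 5 without experiment 4, and that of higher E2F and RB genes was 1. The activator E2F2 fell by 0.72 and the repressor E2F8 by 0.71.

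Genes of mitosis fell in part, with a few very large changes. CDK1, the kinase that drives mitosis, read 8.20, 7.79 and 7.91 with vector and 6.44, 4.8 and 4.9 with WTp53. Its WTp53 arrays were lower in experiments 4 and 5 than in experiment 0 by more than 1 unit, and the change was −2.58 ± 0.39 (limma adjusted p = 0.00135). FBXO5, which holds the anaphase-promoting complex inactive, showed the same split: 9.03, 8.83 and 8.79, then 7.14, 5.77 and 5.69 (−2.68 ± 0.34). TOP2A, the topoisomerase that untangles chromosomes, read 8.78, 8.44 and 8.56 and then 7.57, 6.65 and 6.39. UBE2C, the ubiquitin carrier of that complex, fell by 1.36 and the kinesin KIF18A by 1.09. Of 39 mitotic kinases and motors 17 fell and 3 rose (median −0.27), of 33 kinetochore and checkpoint genes 15 fell and 1 rose (−0.29), and of 18 genes of the anaphase-promoting complex 10 fell and 2 rose (−0.46). Some classic mitotic genes rose slightly: BIRC5 (survivin) by 0.32 ± 0.07, the kinesin KIF20A by 0.37 ± 0.09, CDC20, the activator of the anaphase-promoting complex, by 0.30 ± 0.08, and PTTG1 (securin) by 0.32 ± 0.08. CDC20 did not pass without the vector or the WTp53 array of experiment 4 (limma adjusted p = 0.0706 and 0.0841) or of experiment 5 (0.0710 and 0.0594), nor PTTG1 without the WTp53 array of experiment 4 (limma adjusted p = 0.0536), and the mean of the probe sets of BIRC5 changed by 0.12 (limma adjusted p = 0.327). With the spread of the 9 arrays of the first set, 4 mitotic and 4 kinetochore genes were called lower. With that of all 18 arrays the counts were 8 and 5. Without experiment 4 they were 8 and 5, and without experiment 5 they were 9 and 7. The mitotic genes called higher, 3 here, were 0 with the spread of 9 arrays and without experiment 4 or 5, and 1 with that of 18 arrays, so the rises of BIRC5 and KIF20A were not called with 9 arrays (limma adjusted p = 0.0951 and 0.268).

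Genes of recombination and of replication-linked repair fell as well. Of 37 measured genes of homologous recombination and the Fanconi pathway 26 fell (70.3%), 9 of them at least 2-fold, and 1, RAD51C (0.41 ± 0.07), rose. ERCC4, a nuclease subunit, read 7.17, 7.29 and 7.49 with vector and 6.0, 5.93 and 5.75 with WTp53 (−1.42 ± 0.11). TOPBP1, which activates the checkpoint kinase ATR, read 8.78, 8.76 and 8.83 and then 7.60, 7.21 and 7.11 (−1.48 ± 0.13). The helicases BLM and FANCM fell by 1.21 and 1.37. Of 23 mismatch and base excision repair genes 14 fell and 1 rose: MSH6, a sensor of mispaired bases, fell by 1.02, MLH3 by 1.09, the exonuclease EXO1 by 1.23 and the ADP-ribose polymerase PARP2 by 1.13. Without experiment 4 the lower counts of the 2 lists were 13 and 9, and with the spread of 9 arrays that of the recombination list was 17.

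Histone genes fell in all 3 experiments. Of 63 measured histone genes 39 fell, 18 of them at least 2-fold, and 1 rose, and the median was −0.67, −0.70 and −0.74 in the 3 experiments. H2BC7, whose promoter is shown above, read 7.68, 7.98 and 7.78 with vector and 5.69, 5.59 and 5.52 with WTp53 (−2.21 ± 0.10, limma adjusted p = 1.16e-05). The H2A gene H2AC4 fell by 1.57, the H2B genes H2BC4, H2BC9 and H2BC14 by 1.53, 1.64 and 1.54, and the linker histone H1-2 by 1.12. The exception was H2BC11 (0.79 ± 0.12). Histone genes are near-identical copies of each other, so single members may share signal.

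**Figure D4:**
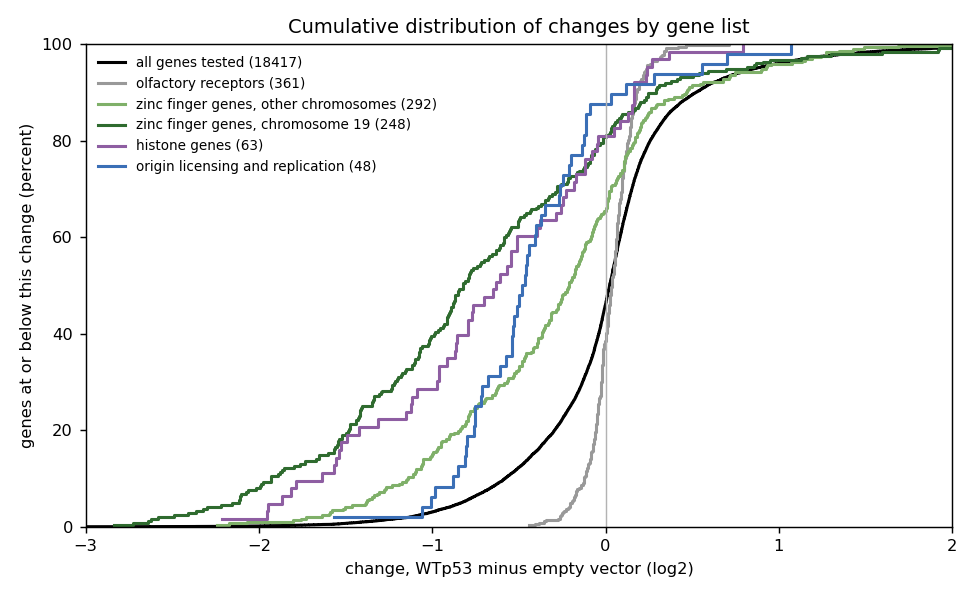
Cumulative percent of genes (vertical axis) at or below each log2 change (horizontal axis, WTp53 minus vector, shown from −3 to 2) for all genes and 5 lists. Zinc finger genes of chromosome 19 (median −0.82), histone genes (−0.63) and replication genes (−0.47) lie to the left of all genes (0.02), and olfactory receptors (0.04) form a steep line around 0.

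Zinc finger genes made up a large share of the largest falls. They are mostly DNA-binding repressors, many with a KRAB domain that silences transposable elements, and they lie in tandem clusters, above all on chromosome 19. Of 540 measured members, among the 18417 genes tested, 287 fell and 57 rose. They were 287 of all 3592 genes called lower. Of the 30 largest falls they made up 23, of the 100 largest 49, and of the 561 genes called at least 2-fold lower 142 (25.3%). ZNF221 read 8.41, 9.11 and 9.15 with vector and 6.17, 5.99 and 6.01 with WTp53 (−2.83 ± 0.19, limma adjusted p = 4.63e-05). ZFP30 read 10.76, 11.54 and 11.64 and then 8.47, 8.77 and 8.53 (−2.72 ± 0.22). In both, the vector array of experiment 0 was the lowest of the vector arrays and still above all WTp53 arrays. ZNF582, ZNF155 and ZNF566 followed with −2.64 ± 0.22, −2.62 ± 0.23 and −2.58 ± 0.18. For ZFP14 the vector arrays read 5.48 in experiment 0 against 7.0 and 6.99, and for ZNF443 they read 4.91 against 7.0 and 6.45. Not all members fell, though without experiment 4 the number called higher was 34: ZNF296 read 7.09, 6.95 and 6.97 with vector and 9.62, 9.67 and 9.80 with WTp53 (2.70 ± 0.08), and ZNF30, ZNF777 and ZNF468 rose by 2.24 ± 0.14, 2.07 ± 0.12 and 1.59 ± 0.10.

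The zinc finger genes were also described by position. On chromosome 19, 164 of 248 measured zinc finger genes fell (66.1%), 98 of them at least 2-fold, and 20 rose, with a median change of −0.82. On other chromosomes 123 of 292 fell (42.1%) and 37 rose, with a median of −0.21. The other genes of chromosome 19 fell in 115 of 1061 cases (10.8%), below the 19.5% over all genes. Of the 164 that fell on chromosome 19, 138 had a neighbouring measured zinc finger gene that also fell. The longest such run of neighbours held 15 genes, from ZNF101 to ZNF431, and the next 10, from ZNF224 to ZNF180. Another held 7, from ZFP14 to ZNF567. With 66.1% of the zinc finger genes of chromosome 19 lower and in clusters, such neighbours and runs are frequent in any case. The count was not compared with that share. These genes are similar in sequence and their probes may share signal, which was not tested; neighbours are therefore not independent points. Without zinc finger genes 18.5% of the remaining 17877 genes were called lower.

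Families that are silent in most cells were read for comparison. Of 361 olfactory receptor genes, which are normally silent outside the nose, 8 were called higher and 3 lower, and none changed 2-fold. Of 68 keratin-associated protein genes 8 were called higher and 0 lower, led by KRTAP5-9 and KRTAP10-11, each at 0.50. Without the vector or the WTp53 array of experiment 4, 4 and 3 of these were called higher, and 3 and 5 of the olfactory receptors. Called in all were 3.05% of the olfactory receptors and 11.8% of the keratin-associated genes, against 36.8% of all genes. The keratin-associated calls were all higher, a direction in which 17.3% of all genes were called. Only 3 of the 361 and 22 of the 68 genes had a mean above 4.93, the median of all probe sets. The shares called are therefore those of mostly dim genes and give no rate of false calls for brighter ones.

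Genes of protein synthesis fell in part. Of 35 aminoacyl-tRNA synthetase genes, which charge tRNAs with amino acids, 23 fell and 2 rose. AARS1 read 10.37, 10.38 and 10.41 with vector and 9.5, 9.21 and 9.08 with WTp53 (−1.12 ± 0.11), and CARS1, MARS1 and the mitochondrial FARS2 fell by 0.86, 0.85 and 1.13. Several synthetases are targets of the stress factor ATF4, whose list had 12 of 33 members lower and 5 higher, the latter 3 without the vector array of experiment 4 or the WTp53 array of experiment 4 or 5, and 1 without experiment 5. ASNS, asparagine synthetase, read 10.57, 10.42 and 10.55 and then 9.39, 9.07 and 8.86. SLC7A11, which imports cystine, fell by 1.66 and CTH, which makes cysteine, by 1.66, whereas ALDH1L2, a mitochondrial folate enzyme (2.24 ± 0.19), and TRIB3 (0.83 ± 0.15) rose. Of 31 genes of RNA polymerase I and ribosome assembly 16 fell and 2 rose: the initiation factor RRN3 fell by 0.97 and TAF1A by 1.48, and UBTF, which opens ribosomal DNA, rose by 0.83 ± 0.10. Of 66 cytosolic ribosomal protein genes 7 rose (4 without the vector array of experiment 4 or 5 or the WTp53 array of experiment 0) and 3 fell, and of 72 mitochondrial ones 8 rose and 27 fell. Without experiment 4 the lower counts were 11 for the synthetases, 7 for the polymerase I list and 8 for the mitochondrial ribosome, and without experiment 5 they were 13, 8 and 11. Without the vector array of experiment 4 or 5 alone, 16 and 17 mitochondrial ribosomal protein genes were called lower.

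Respiratory chain genes changed little. Of 70 measured members 11 rose and 8 fell, none by 2-fold, with a median of 0.04; without experiment 4 the counts were 4 and 2, and without experiment 5 they were also 4 and 2. SDHA, of complex II, rose by 0.94 ± 0.07 and NDUFS1, of complex I, fell by 0.62. Of 31 glycolysis and hypoxia genes 5 rose, 4 of them at least 2-fold, and 6 fell, 1 of them at least 2-fold; the share called, 35.5%, was near that of all genes. PFKFB3, which makes an activator of glycolysis, rose by 1.72 ± 0.22, ADM, a vasodilator peptide, by 1.11 ± 0.11, and P4HA1, a collagen hydroxylase, fell by 1.25. Without experiment 0, and without its vector array alone, the number higher in this list was 10; without experiment 4 the counts were 3 and 3. Sterol and fatty acid synthesis had 5 of 29 higher and 2 lower, and nucleotide synthesis 1 of 18 higher and 5 lower, with MTHFD2, a mitochondrial folate enzyme, at −0.87 ± 0.09. The 5 higher are 17.2% of the sterol list, near the share over all genes. Leaving out the vector array of experiment 4 gave 2 sterol genes higher and 2 nucleotide genes lower, and leaving out the vector array of experiment 5 or the WTp53 array of experiment 4 or 5 gave 3 and 3. Of 45 proteasome subunits 2 rose and 3 fell, or 5 without the WTp53 array of experiment 0.

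Receptors and ligands at the cell surface had rises in several lists, though in none did more than 48.9% of the members rise. Of 25 Notch pathway genes 11 rose and 4 fell, with a median of 0.10; without the WTp53 array of experiment 4 or 5, 2 were called lower. The ligands JAG2 and JAG1 rose by 3.58 ± 0.22 and 1.61 ± 0.12, the receptors NOTCH1 and NOTCH3 by 1.97 ± 0.18 and 1.14 ± 0.12, and the effector HEYL by 1.46 ± 0.09. RBPJ, the DNA-binding partner of Notch, fell by 0.49 and the coactivator MAML2 by 0.97. NOTCH1 read 5.17, 5.18 and 5.16 with vector and 6.66, 7.36 and 7.40 with WTp53. Of 47 axon guidance and adhesion genes 23 rose, 12 of them at least 2-fold, and 6 fell; the number called lower was 3 without experiment 4 and 2 without experiment 5. EPHB4 and EPHA2, receptors of the ephrins, rose by 2.12 ± 0.14 and 1.28 ± 0.10. The ligand EFNB1 rose by 2.10 ± 0.15 and EFNB2 fell by 0.84. ITGA2, the collagen-binding integrin, rose by 2.38 ± 0.20 and was the largest of 9 rises among 29 integrins, of which 2 fell. Of 43 collagens 9 rose (20.9%, near the 17.3% over all genes) and 0 fell, led by COL4A1 (0.68 ± 0.08); without the vector array of experiment 4 the collagens called higher were 5, and without experiment 4 the collagens and integrins called higher were 4 and 5.

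In the transforming growth factor beta family 18 of 39 members were higher (46.2%), 7 lower and 14 not called; the lower count was 4 without experiment 4 and 3 without experiment 5. GDF9, a growth factor best known from the oocyte, read 4.00, 4.16 and 4.13 with vector and 6.92, 7.43 and 7.13 with WTp53 (3.06 ± 0.13). ID2, an inhibitor of differentiation factors, rose by 2.42 ± 0.16, the receptors TGFBR1 and ACVR1 by 1.63 ± 0.11 and 1.07 ± 0.10, and SMAD5 by 1.33 ± 0.10, whereas SMAD2 fell by 0.51 and the repressor SKIL by 1.43. The YAP and TEAD list had 4 of 24 members higher (16.7%, near the 17.3% over all genes) and 8 lower (33.3%, against 19.5%). It held the largest fall of all genes, ANKRD1, a nuclear ankyrin protein and standard YAP target: 9.02, 9.70 and 9.93 with vector against 6.51, 5.93 and 6.05 with WTp53, a 10.4-fold fall (−3.38 ± 0.24, limma adjusted p = 5.82e-05). The second largest, CALHM4, a calcium homeostasis modulator, read 6.41, 7.47 and 7.51 and then 3.79, 4.07 and 4.24. Among 30 immediate-early genes 7 rose and 7 fell, 23.3% each way, a little above the 17.3% and 19.5% over all genes. JUN read 9.84, 10.18 and 10.20 and then 8.90, 8.67 and 8.67, whereas SRF rose by 1.02 ± 0.10 and the phosphatase DUSP1 by 0.77 ± 0.09. Of 30 endoplasmic reticulum stress genes 9 rose (30%) and 5 fell (16.7%, near the share over all genes). EDEM1, which hands misfolded proteins to degradation, was at 1.48 ± 0.10 and the sensor ATF6 at −0.67 ± 0.09. Of 19 heat shock genes 7 rose and 1 fell. HSPB1 rose by 1.18 ± 0.13, and DNAJB4 fell by 1.06. Of 30 inflammatory secreted factors 3 rose and 1 fell (6 and 3 with the experiment as a block, and 7 and 1 without the vector array of experiment 0), and the largest of these was the cytokine LIF (1.09 ± 0.13). The YAP list had 4 lower without experiment 4, and without experiment 5 the heat shock list had 3 higher and the endoplasmic reticulum list 5. In the latter the lower count was 2 without the vector array and 3 without the WTp53 array of experiment 5. The immediate-early counts were 4 and 4 without experiment 4, and equally without experiment 5.

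Calls among interferon-stimulated genes depended on experiment 0. Over all 6 arrays 0 of 35 rose and 1, IRF9 (−1.05 ± 0.29), fell. IRF9 is the DNA-binding part of the interferon-activated complex, and it read 8.58, 8.02 and 7.94 with vector and 7.82, 6.73 and 6.85 with WTp53. Its call was lost without the vector array of experiment 0 (−0.84, limma adjusted p = 0.0686) and without the WTp53 array of experiment 4 (−0.85, limma adjusted p = 0.0862) or 5 (−0.91, limma adjusted p = 0.0916). IFIT3 read 8.27, 5.62 and 5.45 with vector and 8.23, 6.90 and 7.05 with WTp53, so it was level in experiment 0 and higher with WTp53 in the other experiments. IRF1, a transcription factor, did the same: 8.75, 7.09 and 7.13, then 8.55, 8.25 and 8.30. RIGI, a sensor of viral RNA, was lower with WTp53 in each experiment: 10.57, 8.46 and 8.37, then 9.17, 7.05 and 7.28. SAMD9 was also lower in each, from 10.26, 7.82 and 7.75 to 9.42, 6.70 and 6.69. With the experiment as a block 1 member was called higher and 11 lower. Without experiment 0, 9 were called higher and 8 lower, so the list has members in both directions within experiments 4 and 5. Among them were IFIT3 at 1.44 (limma adjusted p = 1.92e-04), IRF1 at 1.17 (limma adjusted p = 1.7e-04), RIGI at −1.25 (limma adjusted p = 3.48e-04) and SAMD9 at −1.09 (limma adjusted p = 2.08e-04), with 2 arrays a group. Of 14 innate immune targets of p53, 5 rose (3 without experiment 4 or 5) and 3 fell. These are 35.7% and 21.4%, against 17.3% and 19.5% over all genes, so the share that fell was near that of all genes. Among the called members were APOBEC3C, a cytidine deaminase (1.38 ± 0.11), and the toll-like receptor TLR6 (−1.05 ± 0.11).

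**Figure D5:**
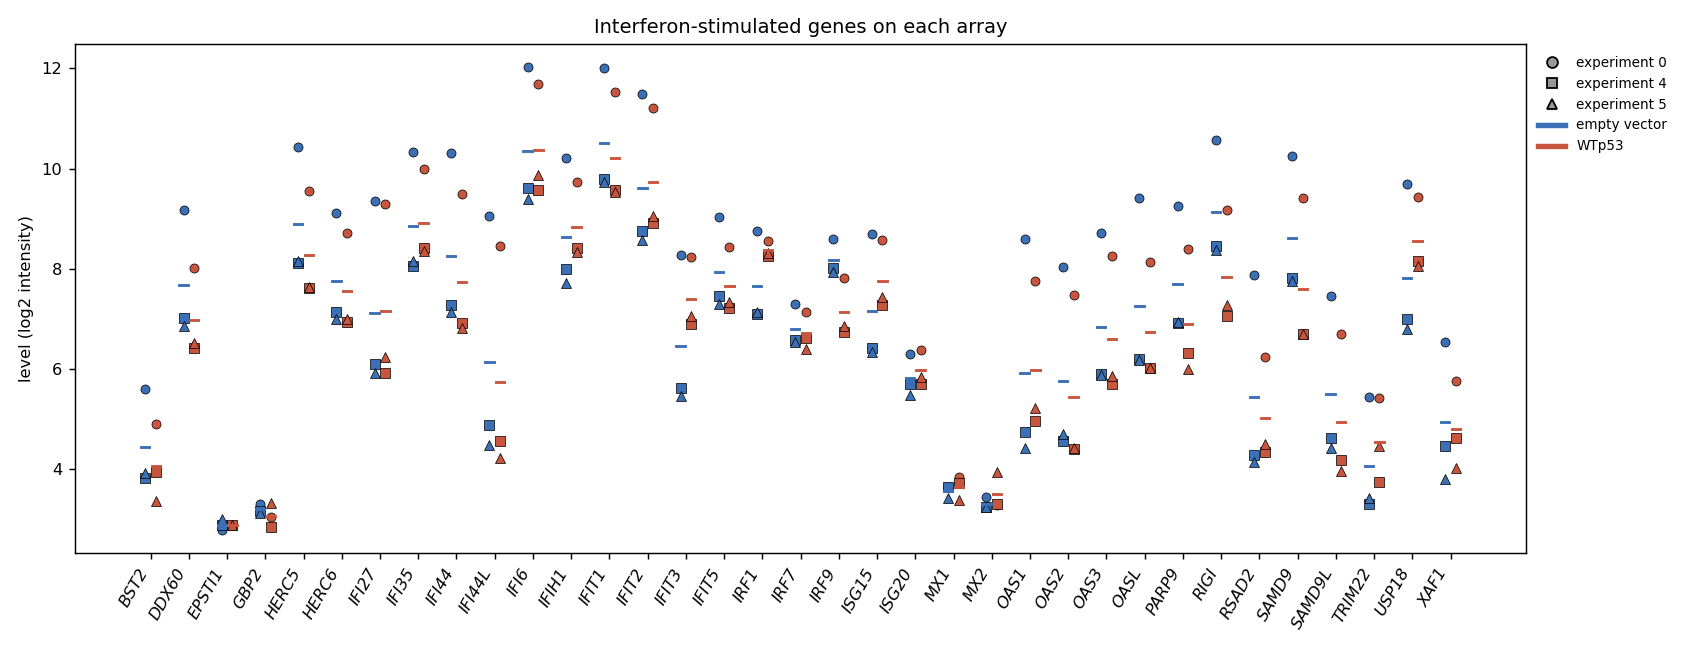
Log2 intensity of the 35 measured interferon-stimulated genes on each array; blue is empty vector, red WTp53, the shape gives the experiment and short lines are group means (n = 3). For most genes the circles of experiment 0 lie above the squares and triangles of experiments 4 and 5 in both groups, and the list medians are 8.75 and 8.25 in experiment 0 and 6.33 to 6.42 in the others.

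Small RNA genes were read by probe sets that cannot separate a precursor from its host transcript or mature product. Of 115 C/D box small nucleolar RNAs, which guide methylation of ribosomal RNA, 22 fell and 8 rose. Of 77 H/ACA and Cajal body RNAs, of which the H/ACA type guides pseudouridylation, 16 fell and 8 rose. The shares that fell, 19.1% and 20.8%, were near the 19.5% over all genes. SNORD44 fell by 1.49 and SNORD78 by 1.33, both from introns of the growth arrest transcript GAS5. SNORA62 fell by 1.58 and SNORA3A by 1.05, whereas SNORA2B rose by 1.18 ± 0.11. Without experiment 0, and without its vector array alone, the number of C/D box RNAs called higher was 16, and without experiment 4 it was 3, with 10 called lower. Their higher count was 5 without the vector or the WTp53 array of experiment 4 or the WTp53 array of experiment 5. The lower count of the H/ACA list was 10 without experiment 4 and 8 without experiment 5, and its higher count was 4 without either and 13 without experiment 0.

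Of 173 microRNA genes 13 were called, 8 higher and 5 lower. That is 7.51%, far under the 36.8% of all genes. A mean above 4.93, the median of all probe sets, was reached by 25 of the 173. The members named here were chosen after their values were seen. The mature forms of 4 of the 5 that were lower are shown because they include the only 2 with a shared seed; from RefSeq (GRCh38.p14), 5′ to 3′, with the seed (bases 2 to 8) in capitals:
let-7f-5p: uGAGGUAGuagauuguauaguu
let-7i-5p: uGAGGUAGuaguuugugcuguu
miR-21-5p: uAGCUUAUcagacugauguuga
miR-93-5p: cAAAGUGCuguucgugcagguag

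The let-7 pair has the same seed, GAGGUAG. MIRLET7F1 (chr9:94176353-94176374 for the mature form, plus strand) read 4.63, 5.18 and 5.13 with vector and 3.42, 3.75 and 3.15 with WTp53, a fall of −1.54 ± 0.19 (limma adjusted p = 0.000507). MIRLET7I (chr12:62603691-62603712, plus strand) changed by −0.56 ± 0.15 and was not called without the vector array of experiment 4 or 5 (limma adjusted p = 0.0622 and 0.0749). MIRLET7F2, which gives the same mature let-7f, was not called, at −0.03 ± 0.09 (limma adjusted p = 0.825). Nor were the let-7 genes MIRLET7A1, MIRLET7A2, MIRLET7C, MIRLET7E and MIRLET7G, so most let-7 genes measured were not called. MIRLET7D, at −0.21 ± 0.08, was not called either, but passed with each array centred on its median (−0.26, limma adjusted p = 0.0384) and after a further quantile normalization (−0.24, limma adjusted p = 0.0459). MIR21 (chr17:59841273-59841294, plus strand) read 6.0, 6.04 and 6.58 and then 4.57, 5.38 and 5.50 (−1.06 ± 0.25). MIR93 (chr7:100093815-100093837, minus strand), which lies in an intron of the helicase gene MCM7, changed by −0.70 ± 0.19 and was not called without the vector array of experiment 5 or the WTp53 array of experiment 0 or 4 (limma adjusted p = 0.0719, 0.0557 and 0.0567). MIR34A, the best known microRNA target of p53, was at 2.65 with vector and 2.79 with WTp53 (0.14 ± 0.09, limma adjusted p = 0.295), low on all arrays and not called.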

How the data were processed

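The values are log2 intensities that the authors deposited in 1 table; per the submitters' processing notes they were made with RMA, a method that subtracts background, quantile-normalizes and combines the probes of a set, in Affymetrix Expression Console, with versions not given in the sources used here. The arrays of experiments 0, 4 and 5 were normalized apart from the rest of the series, so only these were compared. Detection over background was not assessed, and precision is limited by having 3 arrays a group.

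Probe sets with exactly 1 symbol in the platform annotation were used; 1754 with several symbols and 12083 without an entry were left out. For the 769 genes with several probe sets the one with the highest mean was taken, and 2 of these genes had probe sets called in opposite directions. Of the 18417 symbols, 18389 matched the RefSeq gene table and 0 were changed. Dim genes were kept. With limma 3.58.1 in R 4.3.3, a model (lmFit and eBayes, 4 residual degrees of freedom) was fitted to the 6 arrays with a mean per group, two-sided, with Benjamini-Hochberg adjustment over all genes and a threshold of 0.05. The fit was tested on simulated data.

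Whether the experiment number pairs the arrays was checked from the residuals: the correlation of the WTp53 with the vector array was 0.37, 0.21 and 0.15 within experiments 0, 4 and 5, all above the 0.1 set for pairing. Across experiments 4 and 5 it was as high (0.23 and 0.15), so only experiment 0 set its pair apart; the comparison uses group means without pairs, and the block is an alternative. The labels name independent transfections and no shared culture.

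The gene lists and the comparison were chosen with earlier results of these data known. Genes were named by a rule: CDKN1A and MDM2, the 15 largest rises and 15 largest falls that moved the same way in all 3 experiments, the up to 6 members with the lowest p in every list, up to 2 called members against their list's majority, and the 8 genes called at 2-fold or more whose changes differed most between experiments. Genes of the microRNA paragraph and of the closing observations, and the promoters shown, were chosen after their values were seen. The transfected gene's own probe set is not reported here.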

Additional observations from a re-analysis of the deposited data

How the results depend on the processing

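Leaving out 1 array or both arrays of 1 experiment gave 1681 to 3397 genes higher and 1739 to 3967 lower, 666 to 861 at least 2-fold higher and 412 to 808 at least 2-fold lower. Without experiment 4 both counts of calls of any size were lowest. With the experiment as a replicate block, where the pairing rests on the residuals of experiment 0, 3271 genes were called higher and 3742 lower, and 6459 of the calls were shared with the fit without it. Among list counts that reach 5 in either case, the block moved 3 by over 1.5 times: interferon-stimulated genes lower from 1 to 11, inflammatory secreted factors higher from 3 to 6 and olfactory receptors lower from 3 to 7. It brought IFIT3, RIGI and SAMD9 past the threshold (limma adjusted p = 0.0373, 1.97e-04 and 3.53e-04) and changed no other call of a named gene. The spread of the 9 arrays of the first set gave 2804 and 3061, and that of all 18 arrays 3978 and 4076. Centring each array on its median moved the median change from 0.024 to −0.024 and the share of calls that are higher from 47.0% to 39.9%. All these and the other alternatives planned kept the 4 counts within 1.5 times, apart from the counts of higher and of lower genes without experiment 4 or 5. Of 224 genes named with values, all kept their direction except MIRLET7F2 (−0.15 to 0.04 with arrays or an experiment left out) and BMAL1 (−0.11 to 0.07), neither of which was called. Calls lost without experiment 4 or 5 were, among others, those of CASP8, DDIT4, SESN2, REV3L, ATG10, UVRAG, AKT2, RBPJ, IFI30, LAMP3, TRIB3 and MIR21, where 2 arrays a group remained. BIRC5, IRF9, KIF20A and RFC5 did not pass with the spread of 9 arrays (limma adjusted p = 0.0951, 0.0667, 0.268 and 0.103). The cause of the other changes was not tested.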

Other observations

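The lists in these paragraphs were put together after the values were seen, so their counts describe the data and support nothing. Core genes of the circadian clock were mostly lower with WTp53: 11 of 20 measured members were called lower and 3 higher, with a median change of −0.40 against 0.02 over all genes. The repressors CRY1 and PER2, which close the clock's feedback loop, fell by 1.86 and 1.11, the nuclear receptors NR1D2 and NR1D1 by 1.79 and 0.87, and CIART, a clock-associated repressor, by 2.08. RORA, the receptor that opposes NR1D1, rose by 1.2, and FBXL21P, an F-box gene whose relative acts on cryptochromes, by 2.70. BMAL1, the central activator, was at −0.02 and not called. Of 17 measured genes of NF-kappaB and its inhibitors 7 were lower and 4 higher. NFKBIA, the main inhibitor, fell by 1.69, the subunit REL by 1.49, TNFAIP3, a deubiquitinase that ends the signal, by 1.47 and NFKB2 by 1.10, whereas the inhibitor NFKBIE and the subunit NFKB1 rose by 0.70 and 0.50. Without experiment 5 NFKBIE did not pass (0.61, limma adjusted p = 0.0583). Without experiment 4 the clock list had 6 members lower, and without experiment 5 it had 7.

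Genes of the primary cilium and the centriole were lower in 23 of 33 measured cases and higher in 4, with a median of −0.66. SASS6 and CEP135, of the centriole's cartwheel, fell by 1.97 and 1.5, the chaperonin-like BBS12 and BBS10 by 1.72 and 1.28, and the transport subunits WDR19 and IFT88 by 1.57 and 1.03, while BBS7 rose by 0.78. Without experiment 4 the number lower was 15. Phospholipase C and cyclic nucleotide phosphodiesterase genes were higher in 16 of 28 cases and lower in 2. Besides PDE3A, PLCL2 rose by 2.68, PLCD1 by 2.59, PLCXD2 by 2.32 and PDE8A by 1.12, and PLCB4 fell by 1.08. Of 19 smooth muscle and cytoskeleton genes 9 were higher and 1 lower: besides ACTA2 and PALMD, TMOD1, which caps actin filaments, rose by 2.64, the small heat shock protein CRYAB by 2.07 and smoothelin SMTN by 2.05, while VCL, vinculin, fell by 0.52. Of 23 desmosome and tight junction genes 6 were higher (3 without the vector or the WTp53 array of experiment 4 or the vector array of experiment 5) and 2 lower, with desmoplakin DSP at 2.31 and plakoglobin JUP at 1.7. Of 34 metallothioneins and zinc transporters 5 were higher (8 without the vector array of experiment 0) and 5 lower (2 without the vector array of experiment 4 or 5 and 3 without the WTp53 array of experiment 0 or 4); the exporters SLC30A10 and SLC30A1 rose by 3.17 and 2.53.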
